A study of Mus musculus with 2 samples.

Results

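The 35 genes described here encode the machinery that builds the mitotic spindle and separates the chromosomes. They were chosen by name, as the rows of the deposited count table that carry one of 35 gene symbols, and all 35 were found among the 54751 gene rows. The study sequenced RNA from 2 cultures of wild-type mouse myeloid-derived suppressor cells, or MDSCs, grown out of bone marrow in serum-containing RPMI medium. MDSCs are immature myeloid cells that can dampen T cell responses. One culture, called control below, received vehicle. The other received mrWNT2, named for the secreted signalling protein WNT2, and both cultures were dosed on day 0 and day 3 and harvested on day 6. Mouse strain, age, dose and any pooling of animals are not given in the sources used here, and each condition has 1 library, so no test between conditions was possible. The comparison describes how RNA levels differed between these 2 libraries. An effect of mrWNT2 cannot be told apart from variation between cultures.

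The mitotic genes were strongly expressed in both libraries and differed little between them. The ratio of mrWNT2 over control lay above 1 for 27 of the 35 (77.1%, against 52.3% of the 12856 genes tested, which averaged 1 CPM or more), and below 1 for 8 (against 47.7%). CPM is the count scaled to the library size after TMM adjustment, a correction for differences in RNA composition. The 95% counting interval of the ratio lay wholly above 1 for 16 genes (45.7%, against 21.0% of all genes tested), and wholly below 1 for 0 (18.8% of all genes tested). The median log2 ratio was 0.12, a ratio of 1.09, beside 0.02 over all genes tested. The differences were small: 2 genes, Bub1b and Prc1, reached 1.2-fold higher (5.71%, against 21.0%), 0 reached 1.2-fold lower (18.4% of all genes tested), and 0 reached 1.5-fold in either direction (7.62% higher and 7.02% lower among all genes tested). Prc1 lay at the threshold and fell short of it under 4 of the 5 other scalings tried. Of these, DESeq2 size factors and the authors' FPKM gave it the same log2 ratio of 0.23 and are not separate checks. The intervals come from the read counts alone (exact Clopper-Pearson), so they compare these 2 libraries and leave out the variation between cultures, which was not measured.

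Because the width of an interval depends on the count, the shares were also taken over the 7555 genes whose mean level lay in the range of the 35, from 14.7 to 1120 CPM. Among these, the interval lay above 1 for 25.6% and below 1 for 23.7%, 14.3% reached 1.2-fold higher and 12.1% reached 1.2-fold lower, and the median log2 ratio was 0.01. Set against this background, the mitotic genes had more small upward ratios and fewer ratios past 1.2-fold in either direction.

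In a dividing cell, cyclin-dependent kinase 1 (CDK1) bound to cyclins A and B drives entry into mitosis, and the kinases PLK1 and Aurora A mature the centrosomes. Kinetochores assemble on centromeres, capture microtubules and hold the spindle checkpoint active until every chromosome is attached. The anaphase-promoting complex (APC/C) with its activator CDC20 then marks securin and cyclin B for destruction, sister chromatids part, and the central spindle positions the cleavage furrow. Transcripts of these genes accumulate in G2 and mitosis and are low in resting cells. In bone marrow, the proliferating myeloid precursors express them, whereas mature neutrophils have left the cell cycle.

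Sequencing gave 13474453 counts in control and 12621110 in mrWNT2, with TMM factors of 0.992 and 1.01. The 35 genes together took 0.399% of the control counts and 0.450% of the mrWNT2 counts, or 4024 and 4465 summed CPM, a ratio of 1.11 (interval 1.10 to 1.12). Mki67 and Top2a alone supplied 37.9% and 39.5% of the counts of the 35, and without them the summed ratio was 1.08 (1.07 to 1.10). Both summed ratios were computed with TMM scaling only. Under other scalings the median log2 ratio of the 35 ran from 0.07 to 0.14, a dependence these counting intervals leave out. In bulk RNA, a larger share of cycling cells and more RNA of these genes per cell cannot be told apart. The labelled cell identity was read beside 14 MDSC genes. All had counts in both libraries, down to 18 in each for Ly6c1, which by itself does not tell MDSCs from other myeloid cells. S100a9 stood at 25349 and 22000 CPM, Itgam (CD11b) at 495 and 477 CPM and Ly6c2 at 700 and 663 CPM. The granulocyte marker Ly6g stood at 173 and 86.3 CPM. The interval lay below 1 for 8 of the 14 (57.1%, against 18.8% of all genes tested) and above 1 for 3 (21.4%, against 21.0%). Among those 3 were Csf1r, the macrophage growth factor receptor gene (146 and 346 CPM), and Cybb, a phagocyte oxidase gene (1459 and 1770 CPM). High counts make an interval narrow, and Itgam, at a ratio of 0.964 (0.931 to 0.998), was among the 8. At least 1.2-fold lower were 3 of the 14 (21.4%, against 18.4%), and at least 1.2-fold higher were 2 (14.3%, against 21.0%).

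**Figure D1:**
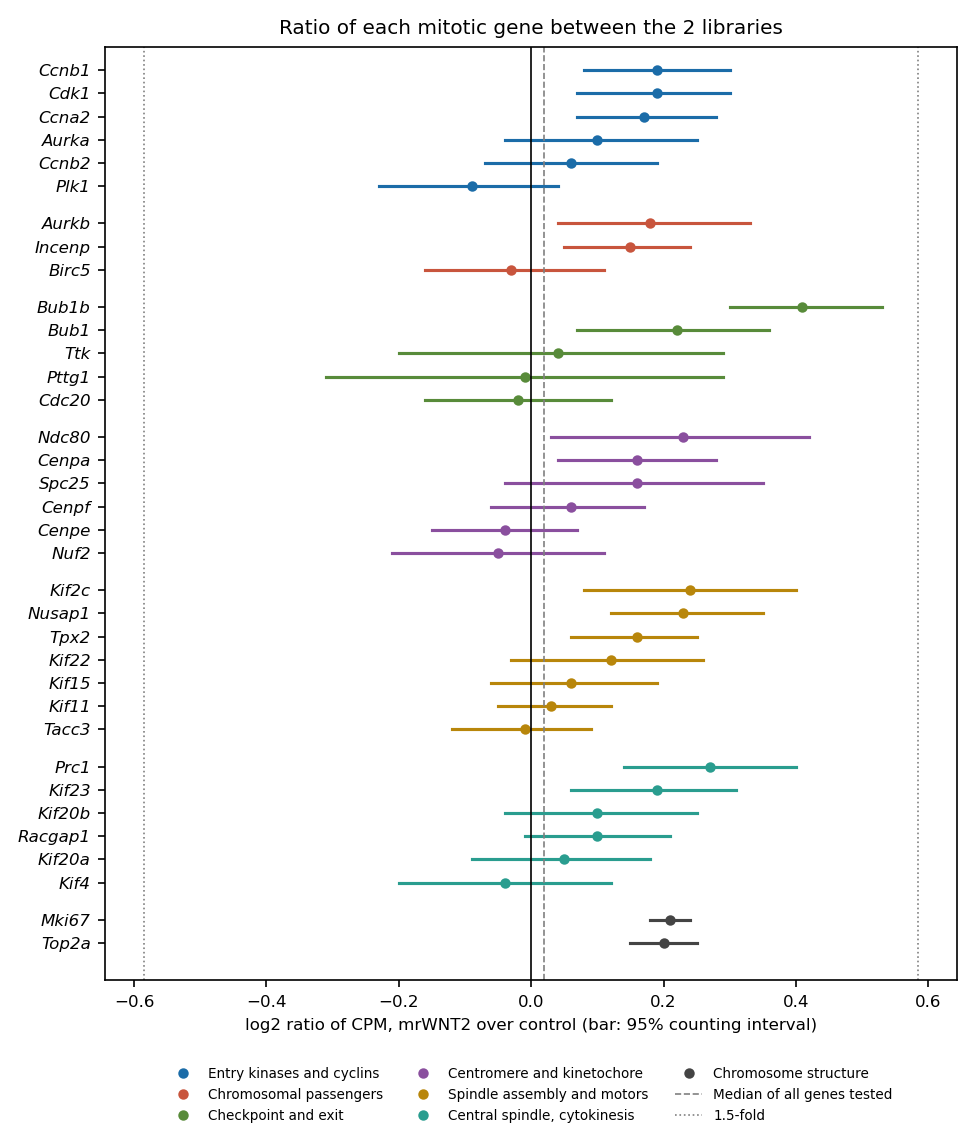
Log2 ratio of CPM, mrWNT2 over control, for each of the 35 mitotic genes (points), with 95% counting intervals (bars), coloured by role; the dashed line is the median of all genes tested and the dotted lines mark 1.5-fold. Every point lies inside the dotted lines, from -0.09 for Plk1 to 0.41 for Bub1b, and 16 bars lie wholly to the right of 0.

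What the genes share apart from their function is visible in their promoters. Many genes switched on in G2 and mitosis carry a cell cycle genes homology region (CHR), a short element close to the transcription start that is bound by the DREAM and MuvB-MYB-FOXM1 complexes, usually with CCAAT boxes, the element bound by NF-Y, upstream of it. RefSeq promoter windows (GRCm38.p6), which run from 250 bases before to 50 bases after an annotated start, were matched by symbol for 30 of the 35 genes. They gave 31 windows, since Prc1 has 2 that overlap. The CHR was searched as TTTGAA and in a variant form as TTTAAA, and the NF-Y element was searched as CCAAT, each on both strands; matches of different motifs may share end bases and were counted separately. TTTGAA was present in 23 of the 31 windows (74.2%), against 17.9% of all 32851 windows of the same length, and TTTAAA in 9 (29.0%, against 13.2%). CCAAT was present in 22 (71.0%, against 37.4%), and at least 2 times in 14 (45.2%, against 11.7%). Both element types were found together in 21 windows (67.7%, against 10.7%). A CHR match lay between 60 bases before the start and the end of the window in 23 of the 31 (74.2%, against 9.12%). These are matches of letters, not measured binding.

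The upstream parts of 5 windows are shown, because they carry the abundant transcripts Mki67 and Top2a, the gene with the highest ratio (Bub1b), and 2 genes with ratios near 1 (Ccnb2 and Kif11). Each sequence runs 5′ to 3′ on the gene's own strand and ends at the base before the annotated start, and capitals mark the CHR and NF-Y matches on either strand. The positions are chr7:135716380-135716629 (minus strand) for Mki67, chr11:99024190-99024439 (minus strand) for Top2a, chr2:118597961-118598210 (plus strand) for Bub1b, chr9:70421555-70421804 (minus strand) for Ccnb2 and chr19:37376132-37376381 (plus strand) for Kif11.
Mki67: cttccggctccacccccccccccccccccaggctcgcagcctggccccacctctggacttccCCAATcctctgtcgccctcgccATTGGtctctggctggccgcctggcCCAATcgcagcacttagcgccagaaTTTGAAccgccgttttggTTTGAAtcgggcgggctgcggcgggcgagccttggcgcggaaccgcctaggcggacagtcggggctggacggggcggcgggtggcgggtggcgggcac
Top2a: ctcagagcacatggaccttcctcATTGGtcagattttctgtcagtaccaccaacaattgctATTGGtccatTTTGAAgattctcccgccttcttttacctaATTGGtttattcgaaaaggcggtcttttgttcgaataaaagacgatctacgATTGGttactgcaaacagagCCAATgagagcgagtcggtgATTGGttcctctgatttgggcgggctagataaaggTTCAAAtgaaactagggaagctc
Bub1b: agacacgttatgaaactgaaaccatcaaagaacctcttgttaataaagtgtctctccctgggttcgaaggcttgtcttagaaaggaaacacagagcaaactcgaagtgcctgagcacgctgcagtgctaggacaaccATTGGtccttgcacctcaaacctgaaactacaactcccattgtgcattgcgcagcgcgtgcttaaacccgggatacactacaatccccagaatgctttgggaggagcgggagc
Ccnb2: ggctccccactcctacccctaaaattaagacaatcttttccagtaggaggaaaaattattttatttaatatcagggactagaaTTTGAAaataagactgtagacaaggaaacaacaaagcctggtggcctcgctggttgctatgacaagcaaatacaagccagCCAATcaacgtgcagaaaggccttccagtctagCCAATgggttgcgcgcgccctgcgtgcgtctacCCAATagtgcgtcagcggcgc
Kif11: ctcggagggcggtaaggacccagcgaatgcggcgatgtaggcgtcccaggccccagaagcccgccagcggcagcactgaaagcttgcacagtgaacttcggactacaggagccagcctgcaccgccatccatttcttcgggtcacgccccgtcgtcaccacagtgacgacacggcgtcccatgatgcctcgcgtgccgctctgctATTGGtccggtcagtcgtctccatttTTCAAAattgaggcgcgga

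The Top2a stretch holds 6 CCAAT elements, and a CHR match begins 23 bases before its start. The Mki67 stretch holds 3 CCAAT elements followed by 2 CHR matches, which begin 116 and 98 bases before the start. In Ccnb2, 3 CCAAT elements begin 87, 54 and 21 bases before the start, and a CHR match begins at base 5 of the transcribed part, outside the printed stretch. Bub1b has 1 CCAAT upstream and its CHR match begins at base 41 of the transcribed part. The elements therefore occur in genes with a higher ratio and in genes with a ratio near 1. Over the 20 genes with both element types the log2 ratio ran from -0.09 to 0.41 with a median of 0.11, and over the 10 other matched genes from -0.05 to 0.24 with a median of 0.08. Nuf2, Nusap1, Pttg1 and Tacc3 had none of these letters in their windows, and their log2 ratios were -0.05, 0.23, -0.01 and -0.01.

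**Figure D2:**
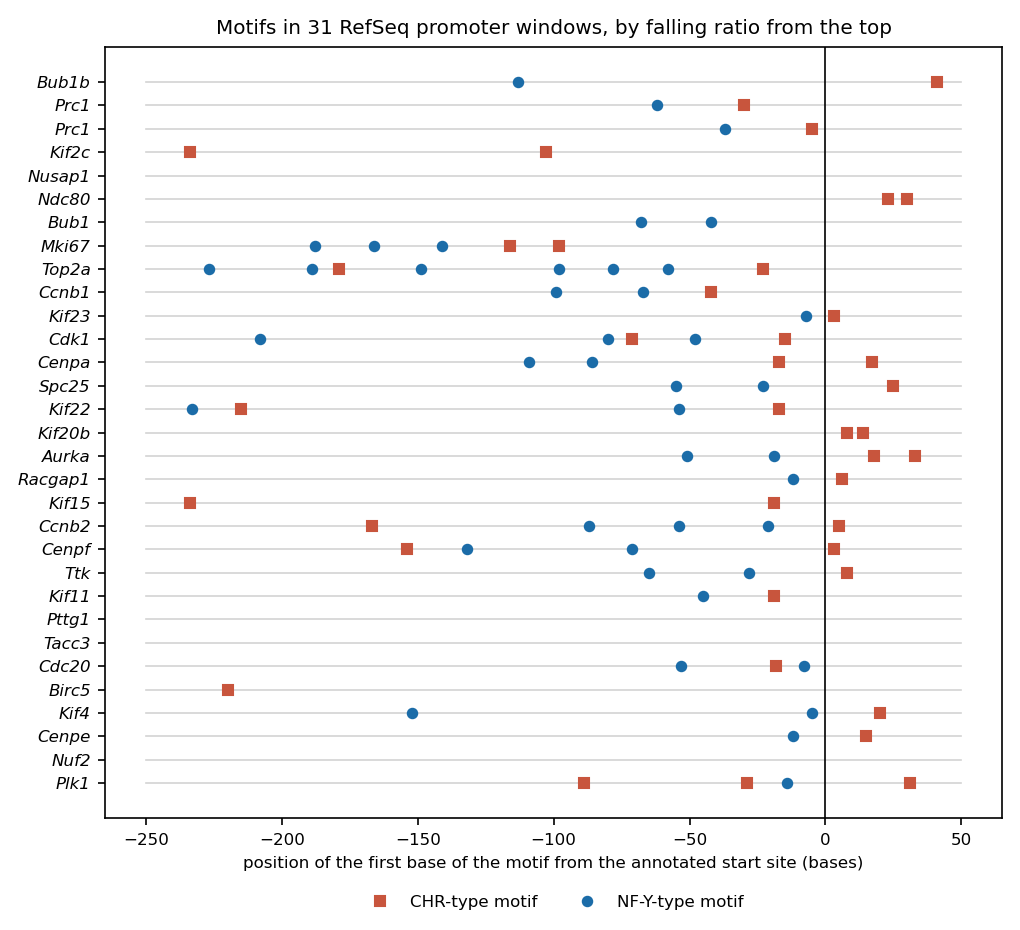
Position of each CHR-type motif (squares) and NF-Y-type motif (circles) in the 31 promoter windows, as the distance in bases of the motif's first base from the annotated start; genes are ordered from the highest ratio of mrWNT2 over control at the top to the lowest at the bottom. Squares gather near the start, with 23 of the 31 windows holding one within the last 60 bases before it or downstream of it, and windows with both motif types are found from the top (Bub1b) to the bottom (Plk1).

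Among the kinases and cyclins of mitotic entry, 5 of 6 ratios lay above 1 (83.3%, against 52.3% of all genes tested). For 3 of the 6 the interval lay above 1, beside a share of 21.0% among all genes tested. With only 6 genes, the difference from all genes was not tested. The summed level of the group was 509 CPM in control and 552 CPM in mrWNT2. Cdk1 (chromosome 10, 69335146 to 69352938, GRCm38), which encodes the kinase itself, had 1234 counts in control and 1334 in mrWNT2, or 92.3 and 105 CPM, a ratio of 1.14 (1.05 to 1.23). Ccnb1, which encodes cyclin B1, had 1317 and 1427 counts (98.5 and 112 CPM), also a ratio of 1.14 (1.06 to 1.23). Ccna2, the gene of cyclin A2, which acts from S phase onwards, stood at 114 and 128 CPM, a ratio of 1.13 (1.05 to 1.21). The catalytic subunit and 2 of its cyclins therefore had nearly equal ratios. The second B-type cyclin gene, Ccnb2, had 976 and 969 counts (73.0 and 76.2 CPM), and its interval of 0.954 to 1.14 included 1. Aurka, which encodes Aurora A, stood at 58.5 and 62.8 CPM, a ratio of 1.07 (0.972 to 1.19). Plk1 (chromosome 7, 122159439 to 122169873), the Polo-like kinase gene, had the lowest ratio of the 35. Its counts were 970 in control and 864 in mrWNT2, or 72.5 and 67.9 CPM, which is 1.07-fold lower with an interval of 0.973 to 1.17 that included no difference. The intervals of Plk1 and Ccnb1, the lowest and highest ratios of this group, did not overlap, and their difference was not tested.

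The chromosomal passenger complex places the kinase Aurora B at centromeres, where it releases faulty attachments, and later at the central spindle. Its scaffold gene Incenp (chromosome 19, 9872297 to 9899533) had 1832 and 1927 counts, 137 and 152 CPM, a ratio of 1.11 (1.04 to 1.18). Aurkb, the kinase gene, stood at 56.4 and 63.9 CPM, a ratio of 1.13 (1.03 to 1.25). Birc5, which encodes survivin, the subunit that docks the complex on chromatin, differed in the other direction and within its counting error, with 926 and 863 counts (69.2 and 67.9 CPM, 1.02-fold lower, 0.929 to 1.12). Per unit length, survivin transcripts stood at 1.06 times the level of Aurkb in control and 0.919 times in mrWNT2, by the authors' FPKM (a fragment count corrected for gene length and sequencing depth).

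The spindle checkpoint genes were the most divided role group. Bub1b (ENSMUSG00000040084, chromosome 2, 118598211 to 118641591) encodes BUBR1, part of the complex that restrains the APC/C, and had the highest ratio of the 35. Its counts were 1113 in control and 1408 in mrWNT2, or 83.2 and 111 CPM, a ratio of 1.33 (1.23 to 1.44). That ratio exceeded those of 87.5% of all genes tested. Bub1, the gene of the kinase that recruits BUBR1 to kinetochores, had 745 and 824 counts (55.7 and 64.8 CPM), a ratio of 1.16 (1.05 to 1.29). The 3 other genes differed by less than their counting error. Ttk, which encodes the checkpoint kinase MPS1, had 285 and 279 counts (21.3 and 21.9 CPM). Cdc20, the APC/C activator gene, had 826 and 774 counts (61.8 and 60.9 CPM, 1.01-fold lower, 0.919 to 1.12). Pttg1, which encodes securin, the inhibitor of separase, had the lowest counts of the 35, 197 and 186, and correspondingly the widest interval, 1.01-fold lower with a range from 0.820 to 1.24.

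Of the 6 centromere and kinetochore genes, 4 had ratios above 1 (66.7%, against 52.3% of all genes tested). For 2 of the 6 the interval lay above 1 (33.3%, against 21.0%). With so few genes, these shares were not far from those of all genes. Cenpa, which encodes the histone H3 variant that marks centromeres, stood at 76.4 CPM in control and 85.4 CPM in mrWNT2, a ratio of 1.12 (1.03 to 1.22). Members of the NDC80 complex, which binds microtubule ends, differed in point value. Ndc80 (chromosome 17, 71496100 to 71526857) had 425 and 473 counts, 31.8 and 37.2 CPM, a ratio of 1.17 (1.02 to 1.34). Spc25 had 406 and 430 counts, a ratio of 1.11 (0.970 to 1.28). Nuf2, the direct partner of Ndc80, had 664 and 611 counts, 49.7 and 48.0 CPM, and was 1.03-fold lower (0.924 to 1.16). The intervals of the 3 subunits overlapped, and the difference among their ratios was not tested. Cenpe, which encodes a plus-end-directed kinesin of the outer kinetochore, had 1413 and 1305 counts, 106 and 103 CPM, and was 1.03-fold lower (0.954 to 1.11). Cenpf, which encodes another large kinetochore protein, had 1267 and 1252 counts, a ratio of 1.04 (0.960 to 1.12).

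Spindle assembly factors and motors had 6 of 7 ratios above 1 (85.7%, against 52.3% of all genes tested). Kif2c (MCAK, a kinesin that depolymerises microtubules and corrects attachments) had 614 and 689 counts, 45.9 and 54.2 CPM, a ratio of 1.18 (1.06 to 1.32). Nusap1, which encodes a microtubule-bundling protein, had 1189 and 1330 counts, 88.9 and 105 CPM, also a ratio of 1.18 (1.09 to 1.27). Tpx2, whose product activates Aurora A and nucleates microtubules around chromosomes, stood at 126 and 141 CPM, a ratio of 1.11 (1.04 to 1.19). The factors with ratios close to 1 included the motor that pushes the spindle poles apart. Kif11 (Eg5) was the third most counted gene of the 35, with 2228 and 2168 counts, and its ratio of 1.02 had a narrow interval of 0.964 to 1.09. Kif15, which can take over part of the work of Kif11, stood at 74.1 and 77.5 CPM, a ratio of 1.05 (0.956 to 1.14). Kif22, the chromokinesin gene, stood at 57.2 and 62.1 CPM, a ratio of 1.09 (0.982 to 1.2). Tacc3, which encodes a stabiliser of spindle microtubule bundles, had 1613 and 1519 counts (121 and 119 CPM, 1.01-fold lower, 0.941 to 1.08). The interval of Tacc3, the lowest ratio of this group, did not overlap that of Nusap1, and their difference was not tested.

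In the central spindle and cytokinesis group, 5 of 6 ratios lay above 1 (83.3%, against 52.3% of all genes tested). Prc1 (chromosome 7, 80294450 to 80316259), which encodes the crosslinker of antiparallel microtubules at the midzone, had 939 and 1075 counts, 70.2 and 84.5 CPM. Its ratio of 1.2 (1.10 to 1.32) was the second highest of the 35. The centralspindlin complex is built from the kinesin Kif23 and the GTPase-activating protein Racgap1. Kif23 had 1011 and 1095 counts (75.6 and 86.1 CPM), a ratio of 1.14 (1.04 to 1.24), and Racgap1 1315 and 1342 counts (98.3 and 106 CPM), a ratio of 1.07 (0.994 to 1.16). These intervals overlapped, and the difference between the partners was not tested. Kif20a, the kinesin that carries the passenger complex to the midzone, stood at 67.3 and 69.6 CPM, and Kif20b at 60.4 and 65.0 CPM. Kif4, a chromokinesin that also limits midzone length, was 1.03-fold lower (0.918 to 1.15), with 673 and 624 counts. All 3 of these intervals included a ratio of 1.

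Mki67 (ENSMUSG00000031004, chromosome 7, 135689784 to 135716361) and Top2a (chromosome 11, 98992943 to 99024189) had the most counts of the 35 and the narrowest intervals. The product of Mki67, the proliferation antigen Ki-67, coats mitotic chromosomes, and topoisomerase II alpha, encoded by Top2a, untangles sister DNA. Mki67 had 13883 counts in control and 15277 in mrWNT2, or 1038 and 1201 CPM, a ratio of 1.16 (1.13 to 1.18). By CPM in control, which is not corrected for gene length, Mki67 ranked above 99.5% of all genes tested. Top2a had 6522 and 7131 counts, or 488 and 561 CPM, a ratio of 1.15 (1.11 to 1.19). The intervals of both lay above the members' median ratio of 1.09.

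Seen together, the members' log2 ratios had quartiles of 0.04 and 0.19, and the counting interval of a gene reached a median of 0.13 to either side. The interval held the common median for 25 of the 35. It lay wholly above that median for 5, Bub1b, Nusap1, Prc1, Top2a and Mki67, and wholly below it for 5, Plk1, Birc5, Cenpe, Nuf2 and Tacc3. Across the 35 genes, the log2 ratio had a Spearman correlation of 0.20 with the mean CPM and of 0.21 with the gene length in the deposited table, given as a description because the genes share the same 2 libraries.

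Levels of different genes were compared per length, on the authors' FPKM. Mki67 was highest at 104 FPKM in control and 118 FPKM in mrWNT2, followed by Top2a at 54.7 and 61.5 FPKM, Ccnb2 at 48.2 and 49.2 FPKM, and Incenp at 43.1 and 46.6 FPKM. Ttk was lowest at 4.38 and 4.41 FPKM, preceded by Ndc80 at 4.95 and 5.66 FPKM. The median gene stood at 17.9 and 18.1 FPKM. The order hardly changed between the libraries, with a Spearman correlation of 0.994 over the 35 genes, and the first 7 places were taken by the same genes in the same order. Bub1b moved furthest up, from place 15 to 12, as its level went from 19.7 to 25.6 FPKM. Within pairs that act together, Ccnb2 stood at 2.04 times Ccnb1 in control and 1.87 times in mrWNT2, Bub1b at 1.52 and 1.74 times Bub1, and Ndc80 at 0.625 and 0.756 times Nuf2. The gene length behind these values is that of the deposited table, 5860 bases for Cenpa for example, so FPKM of a gene whose table length exceeds its main transcript is understated.

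**Figure D3:**
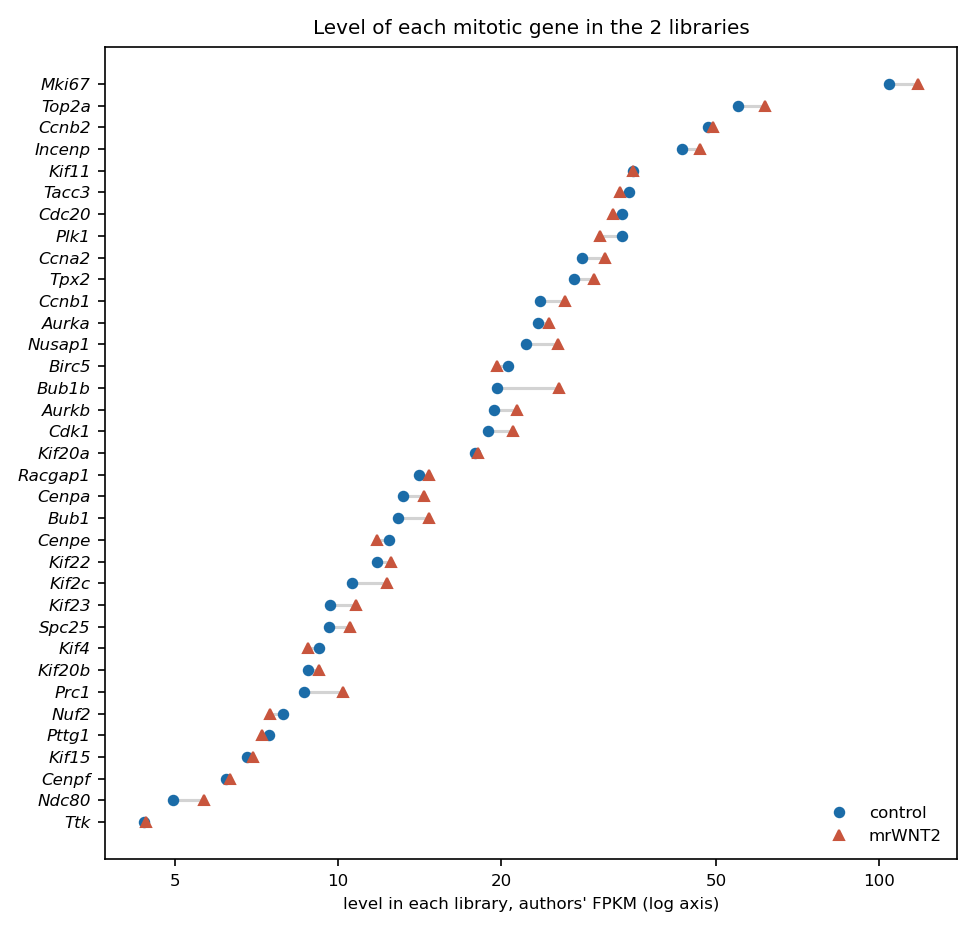
Level of each of the 35 genes in the control library (circles) and the mrWNT2 library (triangles), in the authors' FPKM on a log axis, ordered by the control level. Levels run from 4.38 for Ttk to 118 for Mki67, and the gap between circle and triangle is widest for Bub1b.

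Another 149 genes of mitosis were followed for comparison, and all were measured at 1 CPM or more on average. They were listed by role, not by when in the cell cycle they are expressed. Their interval lay above 1 for 29 (19.5%) and below 1 for 13 (8.72%), beside 21.0% and 18.8% of all genes tested, and their median log2 ratio was 0.05. This median was lower than that of the 35, and the share with an interval above 1 was near the share of all genes. The 27 other centromere and kinetochore genes had a median of 0.10, with 23 ratios above 1 (85.2%, against 52.3% of all genes tested). They ran from Cenpi, a constitutive centromere protein (181 and 250 counts, ratio 1.45), down to Hjurp, the chaperone that deposits CENP-A. Hjurp had 5089 and 4237 counts and was 1.14-fold lower (1.10 to 1.19). The 8 condensin genes had a median of 0.09 and 8 ratios above 1 (100%, against 52.3%). Ncaph was highest (647 and 808 counts, ratio 1.31) and Ncapg2 lowest (1224 and 1171 counts, ratio 1.01).

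The remaining lists had medians near that of all genes. The 35 other spindle and centrosome genes had a median of 0.05, from the kinesin genes Kif3a (112 and 131 counts, ratio 1.23, interval 0.948 to 1.60) to Kif2a (761 and 593 counts, 1.22-fold lower). The 22 other mitotic regulators had a median of 0.03, with the kinase gene Melk highest (227 and 287 counts, ratio 1.33) and Lin52, a MuvB subunit gene, lowest (111 and 84 counts, with an interval that included 1). APC/C genes, 18 in number, had a median of 0.04, from Anapc10 (94 and 106 counts, with an interval that included 1) to Anapc15 (122 and 77 counts, 1.51-fold lower). Cohesin and separase genes numbered 14 and had a median of 0.02. Their interval lay above 1 for 3 (21.4%, against 21.0% of all genes tested), among them the separase gene Espl1 (603 and 658 counts, ratio 1.15). It lay below 1 for 4 (28.6%, against 18.8%), among them the cohesin acetyltransferase gene Esco1 (863 and 691 counts, 1.19-fold lower). Among 12 other checkpoint genes the median was -0.01, although Spdl1, which encodes the kinetochore dynein adaptor Spindly, had 187 and 281 counts and a ratio of 1.58 (1.31 to 1.91), and the lowest, Sgo2a, had 160 and 137. Among 13 other cytokinesis genes the median was -0.00, from the abscission gene Cep55 (361 and 479 counts, ratio 1.40) to the citron kinase gene Cit (679 and 565 counts, 1.14-fold lower).

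Genes of the preceding step, the G1/S transition and DNA replication, were set beside the mitotic genes. Of 30 listed, 29 had ratios above 1 (96.7%, against 52.3% of all genes tested) and 19 an interval above 1 (63.3%, against 21.0%). At least 1.2-fold higher were 10 (33.3%, against 21.0%), and the median log2 ratio of the 30 was 0.20. Their summed level was 1706 CPM in control and 1953 CPM in mrWNT2, a ratio of 1.14 (1.12 to 1.17), beside 1.11 for the 35 mitotic genes. The values of the 30 genes were computed with TMM scaling only. Whether the 2 lists differ was not tested.

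**Figure D4:**
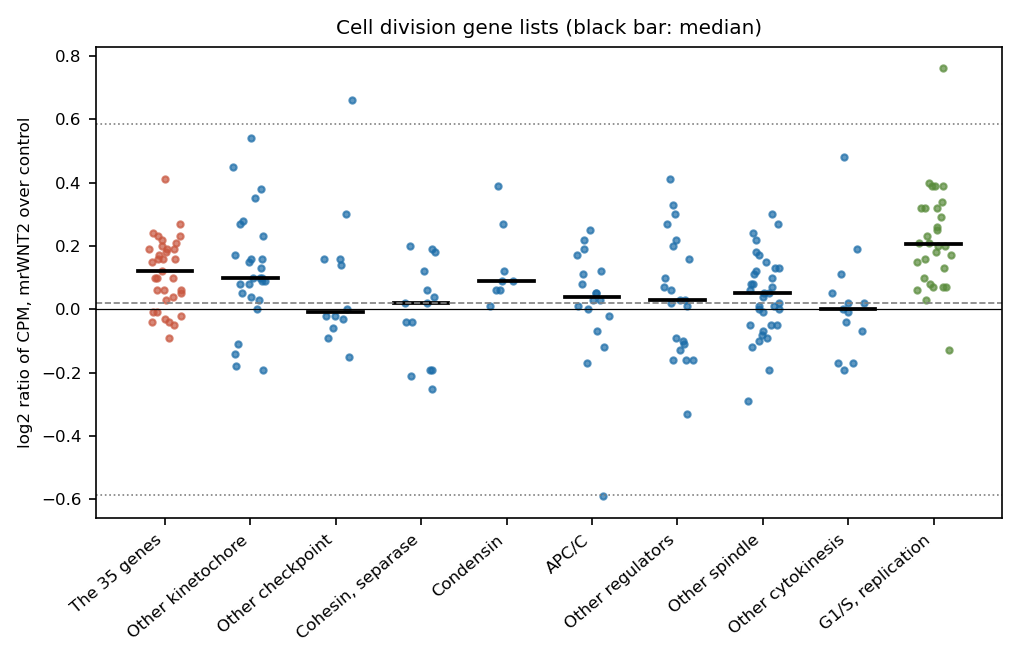
Log2 ratio of CPM, mrWNT2 over control, of each measured gene (points, spread sideways for visibility) in the 35 mitotic genes (red), 8 lists of other mitotic genes (blue) and the G1/S and replication list (green), with list medians as black bars; the dashed line is the median of all genes tested and the dotted lines mark 1.5-fold. The medians run from -0.01 for the other checkpoint genes to 0.20 for G1/S and replication genes, and that of the 35 is 0.12.

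Markers of other cells that could divide in such a culture were read beside these values. Of 15 myeloid progenitor genes, 14 were measured. The interval lay above 1 for 4 (28.6%, against 21.0% of all genes tested) and below 1 for 4 (28.6%, against 18.8%). Their summed level was 1838 CPM in control and 1713 CPM in mrWNT2. Mpo stood at 532 and 448 CPM, Elane at 430 and 394 CPM, and Kit, the lowest ratio of the list, at 36.0 and 16.7 CPM. Prtn3 stood at 228 and 241 CPM and Ctsg at 149 and 175 CPM. Procr had the highest ratio of the list, 6.31 (4.15 to 9.96), from 26 and 156 counts (1.94 and 12.3 CPM). B cell markers summed to 4.86 and 4.48 CPM over 10 genes, with Pax5, Vpreb3 and Rag1 at 0 counts in both libraries, and T, NK and innate lymphoid markers to 2.92 and 1.49 CPM. Erythroid markers summed to 266 and 250 CPM over 9 genes, nearly all of it from the transferrin receptor gene Tfrc (264 and 248 CPM), which many cycling cells express. The next highest was Epor with 18 and 15 counts, and Hbb-bs and Car1 had 0 in both. At these depths a count of 0 leaves room for at most 0.224 CPM (control) or 0.236 CPM (mrWNT2).

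Other myeloid markers were present. Basophil and mast cell markers summed to 344 and 351 CPM over 9 genes, with only Mcpt4 at 0 in both libraries, and megakaryocyte markers to 568 and 309 CPM over 7 genes, with Gp1bb at 0 in both and most of the difference in Pf4 (414 and 150 CPM). Macrophage markers summed to 2998 and 1885 CPM over 10 genes, 7 of which reached 1.5-fold lower in mrWNT2 (against 7.02% of all genes tested), while Adgre1, the F4/80 gene, stood at 325 and 584 CPM and Cd68 at 301 and 380 CPM. Stromal and endothelial markers summed to 71.2 and 80.2 CPM over 9 genes. Lepr, at 2.84 and 22.6 CPM, was 1 of 2 of these genes with an interval above 1, whereas 4 of the 7 measured genes reached 1.5-fold lower, Col1a1, Col1a2, Sparc and Bgn, and the list's median log2 ratio was -1.38. The part of these cells in the ratios of the mitotic genes was not tested.

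Several of the 35 genes lie across other gene models. Prc1 lies wholly inside the annotated span of Rccd1, transcribed from the opposite strand, which had 76 and 74 counts, and Cdc20 overlaps Elovl1 (1621 and 1418 counts) by 53 bases. Ccna2 overlaps Exosc9 (255 and 257 counts), Tacc3 overlaps Tmem129 (372 and 353), Nusap1 overlaps Oip5 (84 and 109), Kif20a overlaps Cdc23 (503 and 507) and Kif4 overlaps Pdzd11 (335 and 360), each on opposite strands. The strand setting of the counting is not given, so reads in these overlaps cannot be assigned with certainty. Pseudogene copies named after members took few counts: Ccnb1-ps had 22 in control and 25 in mrWNT2, Ccnb2-ps had 5 and 2, and Kif22-ps and Kif4-ps had 0 in both.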

How the data were processed

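RNA-seq was available for 1 control and 1 mrWNT2 culture. Per the submitters' processing notes, the tools used were HISAT2 2.0.5, featureCounts 1.5.0-p3, fastp, CASAVA 1.8 and DESeq2 1.20.0, on the GRCm38 (mm10) build. The strand setting is not given there. The authors deposited raw counts per gene and FPKM per gene, per the file headers and labels.

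Counts were scaled with TMM factors (edgeR 4.0.16 under R 4.3.3) computed on the whole table and expressed as CPM. The ratio of mrWNT2 over control used no pseudocount and carries an exact 95% Clopper-Pearson interval from the 2 counts (scipy 1.17.1). It covers counting error alone, and amplified copies count as separate reads. Shares were read against all genes averaging 1 CPM or more. A count of 0 was given an upper limit of 3 counts. The interval method was tested on simulated data. Alternatives were DESeq2 1.42.0 size factors, total counts, upper quartile factors, centring, the authors' FPKM, other expression minimums and a pseudocount of 1.

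The members and lists were chosen with earlier results of these data known. All 35 members are named. Of each other mitotic list, the genes with the highest and lowest ratio are named. Other genes were chosen after their values were seen. Septin7 and Septin9 were matched by their older symbols, and exons of GENCODE M21 were kept out of the printed promoter stretches. One erythroid marker is not reported here.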

Additional observations from a re-analysis of the deposited data

How the results depend on the processing

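With 1 library per condition, the variation between cultures is unknown, and no library could be left out. No paired analysis was possible because each group has a single library. The median log2 ratio of the 35 mitotic genes was 0.12 with TMM scaling, 0.09 with DESeq2 size factors and with the authors' FPKM, 0.10 after centring on genes averaging 10 CPM or more, 0.14 with total counts, 0.12 with a pseudocount and 0.07 with upper quartile factors. DESeq2 size factors and the authors' FPKM gave each of the 35 the same rounded log2 ratio, so they are not separate checks. The number of genes with an interval above 1 was 16 with TMM, 16 with DESeq2 size factors, centring and FPKM, 17 with total counts and 13 with upper quartile factors. No gene had an interval below 1 except under upper quartile factors, where 1 did. At least 1.2-fold higher were 2 genes with TMM and total counts, and 1 (Bub1b, without Prc1) with DESeq2 size factors, centring, FPKM and upper quartile factors. None passed 1.5-fold under any of these scalings. For the other 149 mitotic genes, the number of intervals above 1 was 29 with TMM, 39 with total counts, 20 with DESeq2 size factors and FPKM, and 17 with upper quartile factors, and the median was 0.05, 0.07, 0.02 and -0.00 in that order. Shares of all genes were taken with TMM scaling only, so the counts under the other scalings have no background share beside them. Single-gene ratios of the 35 moved by less than their own counting error, except for Mki67 (0.18 with DESeq2 size factors and FPKM, 0.16 with upper quartile factors, against 0.21) and Top2a (0.15 with upper quartile factors, against 0.20). The share of all genes at least 1.2-fold lower was 18.4% at a minimum of 1 CPM and 12.1% over genes in the level range of the 35, a background chosen after the data were seen. Depth limits the low-count genes most, with an interval of 0.30 on the log2 scale to either side at the lowest counts.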
